A study of Mus musculus with 6 samples.

Results

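The miR-181 family of the mouse comprises 6 hairpin genes, Mir181a-1, Mir181a-2, Mir181b-1, Mir181b-2, Mir181c and Mir181d, out of the 1174 miRNA hairpins to which reads could be assigned. The members were taken by gene name and not by a threshold on a measured value, though earlier results of these data were known. To follow them in low-grade inflammation, small RNA reads were examined from bone marrow monocytes (BMMs) of wild-type C57BL/6 mice, which had received either PBS (Control, 3 samples) or 5 pg/ml LPS (LPS, 3 samples) for 4 h. LPS, or endotoxin, is a bacterial cell wall lipid that myeloid cells sense through a Toll-like receptor, and the study used such super-low doses to model subclinical endotoxemia. The culture medium is given as DMEM by the labels and as RPMI by the study's methods. Those methods state that all experiments used male mice and give their age as a range in weeks. The number of mice behind a sample is not given by the sources used here. Nothing states that the 3 samples of a group came from separate cultures, so p-values measure the spread between these samples, which may be technical.

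miRNAs are short RNAs that are cut from a hairpin and guide the silencing complex to messenger RNAs, which they recognise mainly through the seed, the stretch that begins at the second base. Each hairpin can release a mature RNA from its 5′ side (5p arm) and from its 3′ side (3p arm), and 1 of these is usually retained while the other is degraded. In blood cells, the miR-181 family is best known for tuning the sensitivity of developing T cells to antigen and for its part in lymphoid differentiation, and its members have also been tied to the control of inflammatory signalling in myeloid and endothelial cells.

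The mature sequences of all 10 arms are given because they decide which members can be told apart by sequencing and which would share targets. They were taken from RefSeq on GRCm38.p6, where all 10 names were matched, and the capitals mark the seed, bases 2 to 8.
miR-181a-5p: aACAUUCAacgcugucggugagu
miR-181b-5p: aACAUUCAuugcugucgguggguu
miR-181c-5p: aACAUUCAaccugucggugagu
miR-181d-5p: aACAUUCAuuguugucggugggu
miR-181a-1-3p: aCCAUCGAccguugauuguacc
miR-181c-3p: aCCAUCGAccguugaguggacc
miR-181a-2-3p: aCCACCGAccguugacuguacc
miR-181b-1-3p: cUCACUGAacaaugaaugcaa
miR-181b-2-3p: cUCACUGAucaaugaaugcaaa
miR-181d-3p: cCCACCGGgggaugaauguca
The 4 mature 5p arms shared 1 seed, and no other name among the 1679 distinct mature names of the table carried it. The 3p arms fell into 4 seeds, of which miR-181a-1-3p and miR-181c-3p shared 1 and both miR-181b 3p arms shared another. Counted from 1 at the 5′ end, miR-181b-5p differed from miR-181a-5p by A9U, C10U and A21G, and miR-181d-5p differed from miR-181b-5p by C12U alone within the shared length. miR-181c-5p equalled the start of miR-181a-5p with its base 11 left out. By sequence, miR-181a-5p thus stood next to miR-181c-5p, and miR-181b-5p next to miR-181d-5p.

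In the genome the members are paired otherwise. On GRCm38, Mir181a-1 (chr1:137966455-137966541) and Mir181b-1 (chr1:137966639-137966718) lie on the plus strand with 97 bases between them, within the non-coding transcript Gm4258, and both overlap an exon of the long non-coding RNA A430106G13Rik. Mir181a-2 (chr2:38852735-38852810) and Mir181b-2 (chr2:38853830-38853918), 1019 bases apart on the plus strand, lie inside the protein-coding gene Nr6a1 but on the opposite strand. Mir181c (chr8:84178873-84178961) and Mir181d (chr8:84178716-84178787) lie on the minus strand with 85 bases between them, in an intron of Nanos3 on the same strand. The 5p arms of both Mir181a hairpins are identical, as are those of both Mir181b hairpins, so each of these was counted as 1 arm, while the 3p arms told the loci apart.

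The 6 samples held 1498849 to 10927393 hairpin reads, and between 61.5% and 71.0% of all reads were assigned. LPS replicate 2 was the deepest sample and stood apart from the others, with 18.6% of its distinct sequences seen once against 67.1% to 74.7% elsewhere, so differences between the groups whose sign rests on it are also given without it. The 4 arms listed for myeloid cells were miR-223-3p, both arms of miR-142 and miR-21a-5p. They summed to 158000 to 199000 reads per 1000000 hairpin reads (RPM) in the Control samples and 157000 to 197000 in the LPS samples. Most of each sum was miR-21a-5p, at 122800 to 164300 RPM over the 6 samples, while miR-223-3p was at 5607 to 6089 RPM. The sum is therefore not a measure of myeloid cells, and miR-142-5p is a miRNA of all blood lineages. Markers of other cells were far lower than any of these 4 arms. The lymphoid marker miR-150-5p was at 14.9 to 23.2 RPM in the Control samples and 15.1 to 49.2 in the LPS samples, where LPS replicate 2 was the highest, and the erythroid markers stayed at or below 0.583 RPM with miR-144-3p at 0 reads. The endothelial pair ran from 33.8 to 50.3 RPM. The stromal list ran from 9.30 to 10.9 in the Control samples and from 6.00 upwards in the LPS samples, with miR-145a-5p at 0. The epithelial list ran from 63.0 to 152 RPM, and miR-200a-3p (43.65 RPM), miR-200b-3p (57.93) and miR-200c-3p (29.56) were highest in LPS replicate 2. In contrast, miR-141-3p was at 25.56, 20.59 and 15.35 RPM in LPS replicates 1, 2 and 3, below the 27.76 to 37.93 RPM of the Control samples (adjusted p = 0.994 in edgeR's test). Liver, muscle and neural markers each stayed at or below 3.34 RPM, with miR-1a-3p, miR-206-3p and miR-124-3p at 0 reads. The part of any other cell type in the values below was not tested. As these are bulk samples, fewer cells that make a miRNA and less of it per cell cannot be told apart.

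miR-181a-5p was by far the most abundant product of the family. In Control replicates 1, 2 and 3 it reached 14870, 14540 and 16100 RPM, and in LPS replicates 1, 2 and 3 it reached 15730, 10750 and 16090 RPM. LPS replicate 2 lay below all others, which were close to each other. Its mean rank was 14 among all arms with reads, between let-7i-5p (mean 17560 RPM) and miR-146a-5p (mean 12280 RPM). Its range overlapped with that of let-7i-5p, and with that of miR-146a-5p through LPS replicate 2 alone, which carried that mean (55430 RPM against 2822 to 4515 elsewhere). A read covers a whole mature RNA, so levels were compared without division by length, but reads amplified by PCR without molecular identifiers are not counts of molecules.

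miR-181b-5p, which shares the seed of miR-181a-5p, was present at 990.5, 1478 and 1482 RPM in Control replicates 1 to 3 and at 1027, 1420 and 1685 RPM in LPS replicates 1 to 3. The low values were those of replicate 1 in both groups, and the groups overlapped. It ranked 56, next to miR-125b-5p and miR-484-5p, whose ranges it overlapped. miR-181c-5p was at 93.07, 99.19 and 102.7 RPM in the Control samples and at 103.5, 76.14 and 96.07 RPM in the LPS samples, and LPS replicate 2 was again the lowest. miR-181d-5p was rare, with 24, 30 and 36 reads (9.385, 17.5 and 15.22 RPM) in the Control samples and 37, 199 and 28 reads (11.68, 18.21 and 18.68 RPM) in the LPS samples.

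Among the 3p arms, miR-181a-1-3p was the most abundant, at 177.9, 169.8 and 206.7 RPM in Control replicates 1 to 3 and 150.5, 138.9 and 192.1 RPM in LPS replicates 1 to 3. miR-181a-2-3p followed at 102.5, 84.6 and 101.9 RPM in the Control samples and 101.9, 58.66 and 102.7 RPM in the LPS samples, with LPS replicate 2 apart from the other 5. miR-181b-1-3p ran from 7.962 to 16.34 RPM and miR-181c-3p from 5.765 to 11.34 RPM. miR-181b-2-3p had 0, 0 and 1 reads in the Control samples and 2, 5 and 1 in the LPS samples. miR-181d-3p had 0 reads in every sample, which allows up to 0.275 RPM in the deepest sample and 2.00 RPM in the shallowest.

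In descending order of mean level, the arms were miR-181a-5p, miR-181b-5p, miR-181a-1-3p, miR-181c-5p, miR-181a-2-3p, miR-181d-5p, miR-181b-1-3p, miR-181c-3p and miR-181b-2-3p. The ranges of miR-181c-5p and miR-181a-2-3p overlapped, as did those of miR-181d-5p, miR-181b-1-3p and miR-181c-3p, so the order within these sets did not exceed the spread between samples. The first 3 arms were separated from each other and from the rest in every sample.

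**Figure D1:**
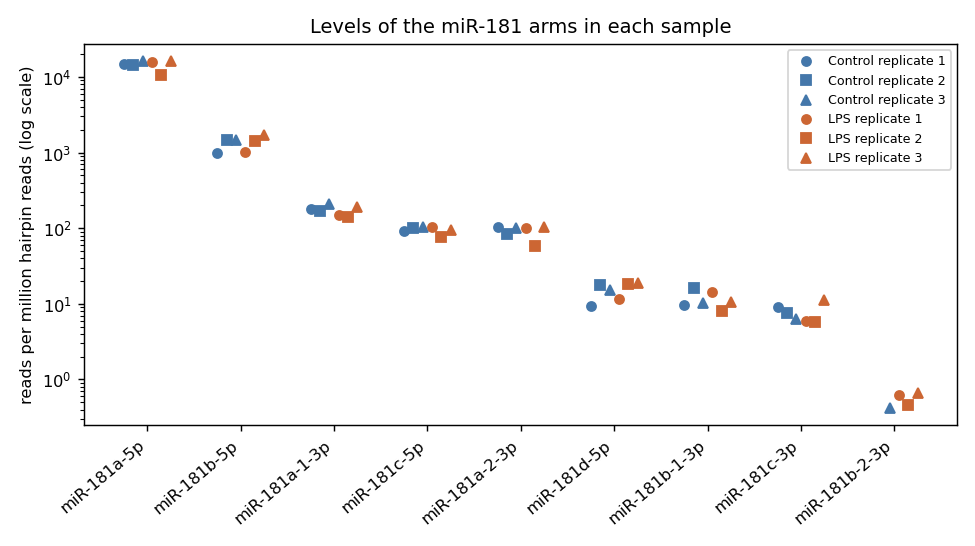
Level of each miR-181 arm in each sample, in reads per 1000000 hairpin reads (RPM) on a log scale (blue: Control, orange: LPS; circle, square and triangle: replicates 1, 2 and 3). miR-181a-5p lies between 10750 and 16100 and exceeds every other arm, LPS replicate 2 (orange square) is the lowest point for miR-181a-5p and miR-181a-2-3p, and samples with 0 reads of miR-181b-2-3p are not drawn.

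The family as a whole, its 9 detected arms summed, made up 1.63%, 1.64% and 1.80% of hairpin reads in Control replicates 1, 2 and 3 and 1.71%, 1.25% and 1.82% in LPS replicates 1, 2 and 3. The Control mean was 16900 ± 978 RPM (SD, n = 3) and the LPS mean 15940 ± 3050 RPM (SD, n = 3), and this sum over chosen members was not tested. LPS replicate 2 accounted for the wider spread, as the other LPS samples were at 17150 and 18200 RPM.

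The question whether super-low-dose LPS shifted the members was addressed with edgeR's quasi-likelihood test on raw read counts of all 319 arms that passed the low-count filter, among which were 8 of the 10 family arms. miR-181b-2-3p and miR-181d-3p were too rare to be tested. No family arm passed the threshold of an adjusted p (Benjamini-Hochberg) under 0.05, nor did any have an unadjusted p under 0.05, the smallest being 0.202. At that threshold LPS raised 0 (0%) and lowered 0 (0%) of all 319 arms, while 8 (2.51%) had an unadjusted p under 0.05 in edgeR and 4 did in DESeq2. The 3 LPS levels lay fully above or fully below the 3 Control levels in 10 of the 319 arms (3.13%) and in 0 of the 8 family arms.

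For miR-181a-5p, the log2 fold change of LPS over Control was -0.12 (standard error 0.18, 95% interval -0.54 to 0.30, adjusted p = 0.994 in edgeR's test). Without LPS replicate 2 it was 0.02, so the negative sign rested on that sample. miR-181b-5p changed by 0.04 on the log2 scale (standard error 0.21, 95% interval -0.47 to 0.54, adjusted p = 0.994 in edgeR's test) and by -0.01 without LPS replicate 2. These intervals leave room for differences of either sign but not for a doubling of either arm, which is 1 on this scale. For miR-181c-5p the log2 fold change was -0.12 (95% interval -0.56 to 0.32) and for miR-181a-1-3p it was -0.23 (-0.62 to 0.16), the largest in size among the 8. In RPM, miR-181a-1-3p was lower with LPS in all 3 pairs of the same replicate number, and a fit with the number as a block gave -0.24 on the log2 scale (edgeR's adjusted p = 0.852).

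The rarer arms were measured with less precision. The 95% interval of the log2 fold change ran from -0.54 to 0.91 for miR-181d-5p, from -1.003 to 0.70 for miR-181b-1-3p, from -0.94 to 0.73 for miR-181c-3p and from -0.78 to 0.45 for miR-181a-2-3p. Without LPS replicate 2 the estimates of miR-181a-2-3p, miR-181b-1-3p and miR-181c-3p turned from negative to 0.04, 0.08 and 0.04. The signs were mixed, with 6 of the 8 estimates below 0 and a median of -0.12, beside 157 of 319 and a median of 0.00 over all arms tested. Of the 8 arms, 6 had their lowest normalised level in LPS replicate 2, against 90 of all 319 arms (28.2%). The exceptions were miR-181b-5p and miR-181d-5p, the pair that is alike in sequence.

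**Figure D2:**
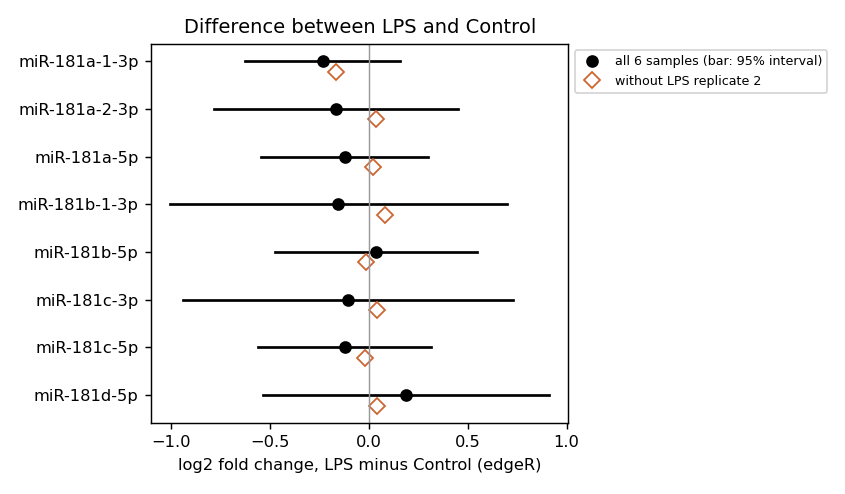
Log2 fold change of LPS over Control for the 8 tested miR-181 arms (black: estimate from edgeR with all 6 samples and its 95% interval; open orange diamond: estimate without LPS replicate 2). All 8 intervals cross 0, and 7 of the 8 diamonds lie within 0.1 of 0, with miR-181a-1-3p at -0.17 the exception.

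The composition of the family was then examined, as shares within it do not depend on library scaling. miR-181a-5p accounted for 93.15%, 90.12% and 90.96% of the 5p reads in Control replicates 1, 2 and 3 and for 93.23%, 87.65% and 89.94% in LPS replicates 1, 2 and 3. Its mean share was 91.41% ± 1.57 with PBS and 90.27% ± 2.81 with LPS (SD, n = 3 each, two-sided exact permutation test, p = 0.5, where 3 against 3 samples allow no p below 0.1). miR-181b-5p made up most of the remainder, with 7.91% ± 1.53 in Control and 9.03% ± 2.77 in LPS samples (n = 3 each, exact permutation p = 0.5). Without LPS replicate 2 both differences changed sign, from -1.14 to 0.170 percentage points for miR-181a-5p and from 1.12 to -0.155 for miR-181b-5p. By replicate number rather than group, replicate 1 of Control and LPS held 6.204% and 6.089% miR-181b-5p, replicate 2 held 9.16% and 11.58%, and replicate 3 held 8.369% and 9.422%. miR-181c-5p held between 0.5371% and 0.6211% of the 5p reads (exact permutation p = 0.9, n = 3 per group) and miR-181d-5p between 0.05878% and 0.1485% (exact permutation p = 0.5, n = 3 per group). Taken as pairs of the same replicate number, the share of miR-181d-5p was higher with LPS in all 3 (exact sign-flip permutation p = 0.25, the smallest that 3 pairs allow).

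Over the 6 samples, the ratios between members that are alike in sequence varied less than those between members that are neighbours in the genome. There were 141 to 167 reads of miR-181a-5p for each read of miR-181c-5p, a 1.19-fold range, and 78.0 to 106 reads of miR-181b-5p for each read of miR-181d-5p, a 1.35-fold range. The ratio of miR-181a-5p to miR-181b-5p, by contrast, ran from 7.57 in LPS replicate 2 to 15.3 in LPS replicate 1, a 2.02-fold range, and that of miR-181c-5p to miR-181d-5p from 4.18 to 9.92, a 2.37-fold range. Both lowest values are those of LPS replicate 2, where a 21-nt form described below adds to miR-181b-5p and miR-181d-5p. As miR-181a-5p and miR-181b-5p are each summed over chromosomes 1 and 2, their ratio is not that of 1 cluster. In the 3p arms, the range was 1.60-fold for miR-181a-1-3p to miR-181a-2-3p and 1.96-fold for miR-181a-1-3p to its neighbour miR-181b-1-3p. The ratios with miR-181d-5p rest on as few as 24 reads in a sample. This is a description of 6 samples and was not tested.

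The 3p arms assign reads to loci. Mir181a-1 supplied 63.46%, 66.74% and 66.99% of Mir181a 3p reads in Control replicates 1, 2 and 3 and 59.62%, 70.31% and 65.16% in LPS replicates 1, 2 and 3, so that the chromosome 1 locus gave the larger part in every sample. The groups did not differ beyond their spread (65.73% ± 1.97 against 65.03% ± 5.34, SD, n = 3 each, exact permutation p = 0.8). For Mir181b the chromosome 2 locus gave few 3p reads. Over all samples, 9 of 235 Mir181b 3p reads came from Mir181b-2, or 3.83% (95% exact interval 1.77% to 7.15%, which covers counting error only). This share depended on the tailed reads described below, as among reads without a tail it was 7 of 32, or 21.9% (95% exact interval 9.28% to 39.97%). Of these 7 reads, 5 were of 1 sequence that was seen in LPS replicate 2 only. The share of Mir181b-1 was 98.67% ± 2.31 in Control and 94.84% ± 0.89 in LPS samples (n = 3 each, exact permutation p = 0.1, and p = 0.25 as pairs, each the smallest that its design allows). This difference of -3.83 percentage points, which was -32.6 with exact matches only, rests on 1 read of Mir181b-2 in the Control samples and 8 in the LPS samples.

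Within each of the 3 clusters, the arms that can be assigned to 1 locus had more reads for the hairpin that is transcribed first. On chromosomes 1 and 2 these are the 3p arms alone, so the total output of each hairpin was not measured. On chromosome 1 there were 10.4 to 20.4 reads of miR-181a-1-3p for each read of miR-181b-1-3p, and on chromosome 2 miR-181b-2-3p made up 0.507% of the 3p reads of both hairpins (9 of 1775 reads, 95% exact interval 0.232% to 0.960%). On chromosome 8, miR-181c-5p exceeded miR-181d-5p 4.18-fold to 9.92-fold.

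The 5p arm exceeded the 3p arm in miR-181a, miR-181b, miR-181c and miR-181d. For miR-181a, 1.85, 1.72 and 1.88 of 100 reads came from the 3p arms in Control replicates 1, 2 and 3, and 1.58, 1.81 and 1.80 in LPS replicates 1, 2 and 3 (exact permutation p = 0.5, n = 3 per group). For miR-181b the 3p share was lower, from 0.589 to 1.45 of 100 reads, and for miR-181c it was higher, from 5.48 to 10.6 of 100 reads. For both, the groups overlapped (exact permutation p = 0.9 for each, n = 3 per group), and for miR-181b the difference changed from -0.0227 to 0.134 without LPS replicate 2.

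**Figure D3:**
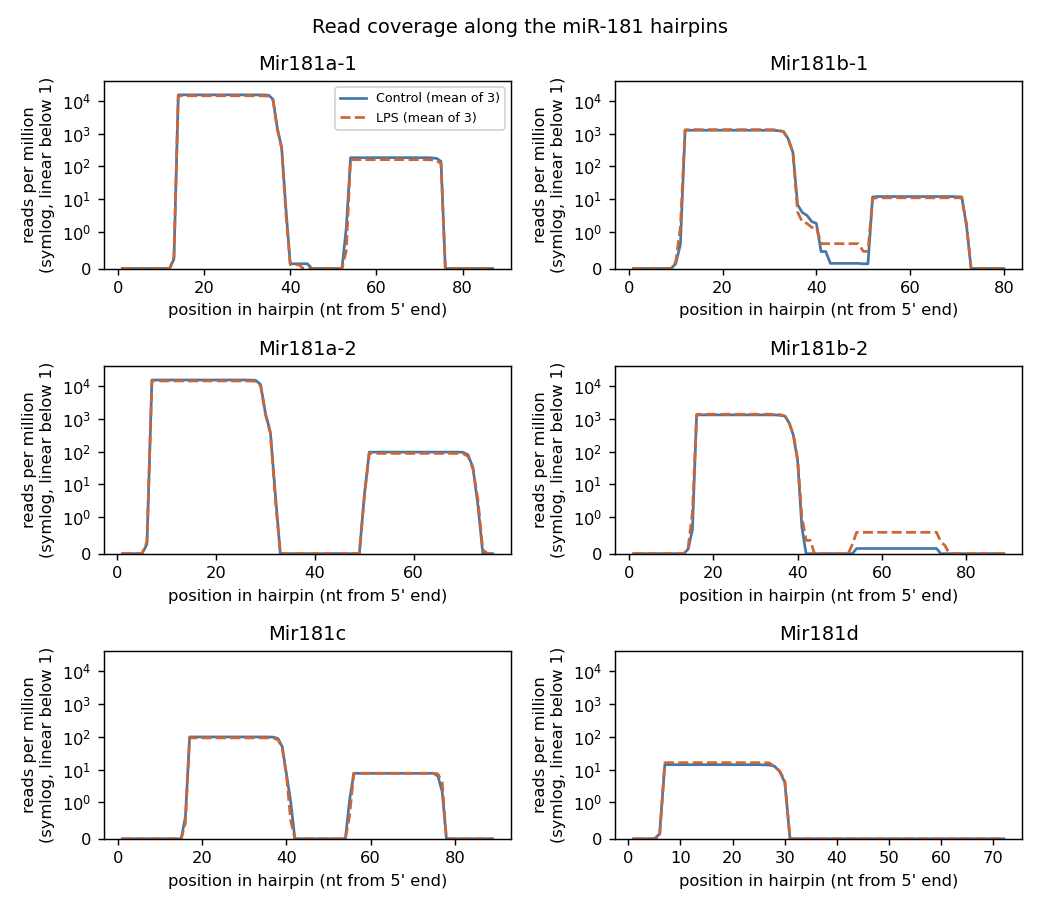
Reads covering each base of the 6 hairpins, as the mean of 3 Control (blue) and 3 LPS (orange, dashed) samples in reads per 1000000 hairpin reads (RPM), on an axis that is linear below 1 and logarithmic above, against the position in the hairpin. Reads that match both Mir181a or both Mir181b hairpins are drawn in each of them, the 5p block exceeds the 3p block in all 6 hairpins, and Mir181d has no 3p block.

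The ends of the reads were examined next, as they show which forms of a miRNA were present. The 5′ ends, which set the seed, were nearly uniform in the 5p arms. Reads that began at the RefSeq base made up 99.8% of miR-181a-5p, 98.9% of miR-181b-5p, 99.5% of miR-181c-5p and 99.2% of miR-181d-5p over all samples. Among the 3p arms, miR-181a-1-3p was as uniform (99.1%), whereas 4.42% of miR-181a-2-3p reads and 15 of the 150 miR-181c-3p reads began 1 base before it.

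The 3′ ends varied more and differed between members. In miR-181a-5p the 23-nt form that RefSeq lists led in every sample, with 62.82% to 64.47% of reads (63.51% ± 0.829 in Control and 63.50% ± 0.829 in LPS samples, SD, n = 3 each, exact permutation p = 0.9). miR-181b-5p had no such leading form. Its main forms are shown because 1 of them set LPS replicate 2 apart. They are written in the DNA letters of the reads, and the capitals mark the bases from position 21 onwards.
21 nt: aacattcattgctgtcggtgG
22 nt: aacattcattgctgtcggtgGG
23 nt: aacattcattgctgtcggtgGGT
24 nt: aacattcattgctgtcggtgGGTT
The 22-nt form held 29.92%, 29.33% and 30.58% of miR-181b-5p reads in Control replicates 1, 2 and 3 and 27.95%, 25.55% and 29.61% in LPS replicates 1, 2 and 3 (exact permutation p = 0.2, n = 3 per group), and was lower with LPS in all 3 pairs of the same replicate number (exact sign-flip permutation p = 0.25). In LPS replicate 2 the total includes 2084 reads of the 21-nt form described below, which lower the share of every other form. Without that sample the difference was -1.17 in place of -2.24 percentage points. The 23-nt form held 24.8% to 31.0% and was the more frequent of these in Control replicate 2 and LPS replicate 1, and the 24-nt form that RefSeq lists was the third in every sample, at 16.5% to 19.3%.

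The 21-nt form of miR-181b-5p was counted 38, 19 and 45 times in Control replicates 1, 2 and 3 and 52, 2084 and 42 times in LPS replicates 1, 2 and 3. It thus made up 13.4% of miR-181b-5p in LPS replicate 2 and 0.750% to 1.66% in the other 5 samples. miR-181d-5p showed the same form, counted 58 times in LPS replicate 2 (29.1% of its reads) and 1 to 3 times in the others (2.78% to 10.7%). The corresponding forms of miR-181a-5p and miR-181c-5p, which end in A where these end in G, held 2.24% and 1.68% in LPS replicate 2 against 1.54% to 2.16% and 0.00% to 2.13% elsewhere. As the 21-nt form was present in every sample and its share stood out in 1 LPS sample of 3, it was not a difference between the groups. Among 148 arms with at least 100 reads in every sample, 9 (6.08%) had a read length whose share in LPS replicate 2 exceeded that of all other samples by more than 10 percentage points, and miR-181b-5p was ninth of these at 10.3. This limit was chosen after the values were seen. With the 21-nt reads left out, the log2 fold change of miR-181b-5p became -0.03 and that of miR-181d-5p became -0.05, in place of 0.04 and 0.19.

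**Figure D4:**
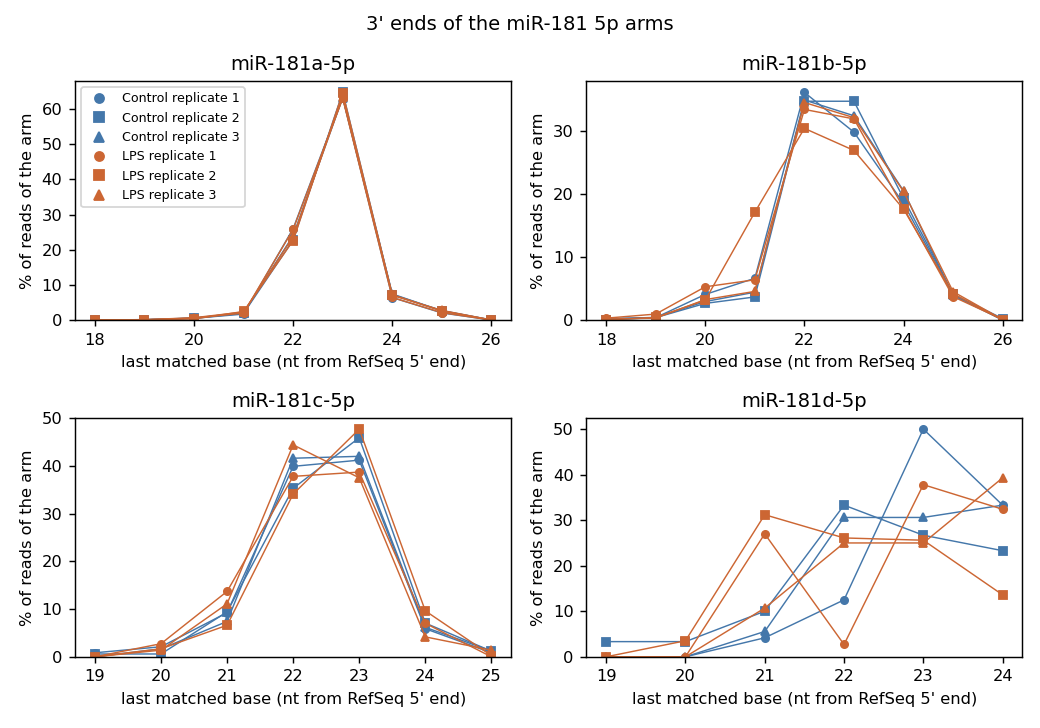
Share of the reads of each miR-181 5p arm that end at a given base, counted from the RefSeq 5′ end to the last base that matches the hairpin, for each sample (blue: Control, orange: LPS; circle, square and triangle: replicates 1, 2 and 3). The 6 lines of miR-181a-5p run together with a peak at 23, and in miR-181b-5p LPS replicate 2 (orange square) rises to 17.1% at base 21, where tailed reads are included, while the others lie at 3.67% to 6.63%.

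Bases at the 3′ end that did not match the hairpin, called tails here, were counted next. Terminal transferases can add such bases, but the origin of those counted was not tested. Over all samples, tails made of U alone were found on 17.0% of miR-181a-1-3p, 18.5% of miR-181a-2-3p, 31.3% of miR-181c-3p and 87.6% of miR-181b-1-3p reads, and on 0.650%, 2.68%, 0.563% and 3.11% of the reads of miR-181a-5p, miR-181b-5p, miR-181c-5p and miR-181d-5p. An added U that matches the hairpin was not counted as a tail, so these shares do not have a like basis in all arms. With U at base 25, 709 reads of miR-181b-5p matched Mir181b-2 and counted as untailed, whereas 11 such reads of miR-181d-5p counted as tailed. For miR-181a-1-3p the range over the 6 samples was 16.0% to 20.4%, and for miR-181a-2-3p it was 15.3% to 24.1%, so that neither overlapped with the range of miR-181a-5p (0.576% to 0.759%). Over all arms with at least 100 reads, the median share of such tails was 12.9% in 161 3p arms and 2.40% in 151 5p arms. Hence miR-181a-1-3p and miR-181a-2-3p lay between the quartiles of the 3p arms (4.81% and 28.1%) and miR-181c-3p just above them, whereas miR-181b-1-3p ranked 2 of 161.

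The tailed forms of miR-181b-1-3p are shown beside the RefSeq form because in most reads the tail began at its last base. The capitals mark bases that do not match the hairpin.
RefSeq form, 21 reads: ctcactgaacaatgaatgcaa
U-tailed form, 166 reads: ctcactgaacaatgaatgcaT
UU-tailed form, 13 reads: ctcactgaacaatgaatgcaTT
Reads with a U tail made up 83.9% to 93.8% of miR-181b-1-3p in every sample, on 16 to 87 reads a sample, and the groups overlapped. Tails of A alone were rarer than U tails on the 3p arms, at 0.00% to 4.25%, but differed among the 5p arms. They were found on 9.37% of miR-181b-5p reads (8.16% to 12.7% over the samples) and 0.964% of miR-181a-5p reads (0.838% to 1.07%), beside a median of 3.32% over 151 5p arms. The ranges of U tails in single samples overlapped between miR-181d-5p (1.51% to 12.5%) and miR-181c-3p (10.5% to 46.7%), both on few reads.

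**Figure D5:**
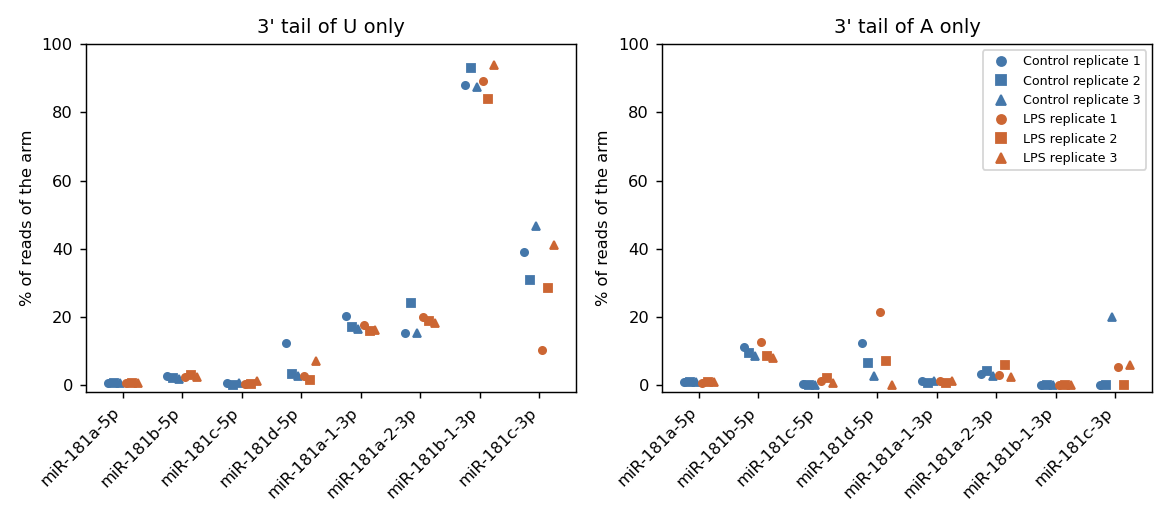
Share of the reads of each miR-181 arm that carry a 3′ tail of U only (left) or A only (right), for each sample (blue: Control, orange: LPS; circle, square and triangle: replicates 1, 2 and 3). U tails lie between 83.9% and 93.8% for miR-181b-1-3p and below 1% for miR-181a-5p, the points of miR-181d-5p and miR-181c-3p scatter on few reads, and miR-181b-2-3p with 9 reads is not drawn.

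As miR-181b-5p and miR-181d-5p differ by C12U only, reads of the rare member were set beside other reads that differ from the abundant one by 1 base. Among reads of 22 to 24 nt, 22801 carried the first 22 bases of miR-181b-5p, and 240 carried them with C12U, or 10.5 per 1000. The other 58 single changes within bases 1 to 19 were found at a median of 0.0439 per 1000 and at most 1.49 per 1000 (A1G), and the other 3 changes of C to U at no more than 0.263 per 1000. Within these bases, no other change was as frequent as C12U, while at base 22, near the 3′ end where tails occur, G22A (35.7 per 1000) and G22U (11.7 per 1000) were more frequent.

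The genome differs between the Mir181b loci just behind the mature RNA, at base 25, where Mir181b-1 has G and Mir181b-2 has U. Of 771 reads that extended the 24-nt form of miR-181b-5p by 1 base, 709 ended in U, 1 in G and 61 in A. The same extension of miR-181d-5p, whose hairpin has G there, ended in U in 11 of 12 reads and in G in 0. As U followed at 11.9 per 100 reads of both lengths in miR-181b-5p and at 15.3 in miR-181d-5p, the base did not tell the loci apart, and the 3p arms were used for this alone.

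The shared seed of the 5p arms pairs with the motif TGAATGT, which was searched on the transcript strand of the longest annotated 3′-UTR of each protein-coding gene (GENCODE M21). It was found in 16.6% of 20813 3′-UTRs. Of the genes the study follows, Scarb1 (SR-B1, a lipoprotein receptor), Irak3 (IRAK-M, an inhibitor of Toll-like receptor signalling) and Smad4 (a mediator of TGF-β signalling), none held it, with 10.1%, 14.3% and 16.2% of 3′-UTRs of like length (80% to 120%) holding it. Of 11 genes that have been named as miR-181 targets in immune cells, 7 held it. Among these were Tnf, which encodes tumour necrosis factor (1 match, against 9.71% of 3′-UTRs of like length), Il1a, which encodes interleukin-1α (2 matches, 14.9%), Cd69, an early activation antigen (1 match, 13.0%), and Bcl2, a survival factor (1 match, 46.6%). The motif was absent from Ptpn22, Ptpn11, Dusp6 and Kpna4. A match is a stretch of letters and not a shown site, and the expression of these genes was not measured in these libraries.

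The family was lastly set beside 10 arms of other miRNAs of blood cells, of which 9 had reads and 8 were tested. Summed, they stood at 38300 to 40700 RPM in the Control samples and 37600 to 90200 RPM in the LPS samples, and 0 of the 8 passed the adjusted threshold in edgeR's test. miR-142-5p, a miRNA of all blood lineages, was at 18110 to 27080 RPM, above miR-181a-5p in every sample, while miR-223-3p, a marker of myeloid cells, was at 5607 to 6089 RPM, below it in every sample. miR-146a-5p, which is induced by Toll-like receptor signalling, was at 2822 to 4515 RPM in 5 samples and at 55430 RPM in LPS replicate 2, the sample in which miR-181a-5p was lowest. miR-155-5p, another inflammatory miRNA, was likewise highest there, at 212.2 RPM against 49.03 to 75.27 in the others. The arms outside the family whose log2 level followed that of miR-181a-5p most closely over the 6 samples, among 137 arms with a mean of at least 100 RPM, were miR-10a-5p, miR-101b-3p and miR-151-3p. Each of these was lowest in LPS replicate 2 as well. This follows from the choice, as miR-181a-5p varied mainly through its low value in that sample.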

How the data were processed

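Small RNA libraries of 3 Control and 3 LPS samples were prepared by the authors with a TruSeq small RNA kit and sequenced on a HiSeq instrument, and adaptors were trimmed with perl scripts and Btrim64. The authors deposited raw counts per distinct sequence (11 to 40 nt), to which no miRNA is assigned. Their later mirAnalyzer step was not used here, and the mm9 build in the submitters' processing notes does not enter, as the files hold no coordinates.

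Here, reads from 18 nt upwards were assigned to the 1174 miRNA hairpins of GENCODE M21 (GRCm38) by exact match, and up to 3 bases at the 3′ end could differ. The hairpin midpoint separated 5p from 3p. Arms were joined into 1 where 50% or more of the reads of each were common to both, and remaining shared reads were given to the arm with the most unique reads. RPM is per 1000000 hairpin reads. The read totals of 2201520 to 17691405 set the precision of the rare arms, and intervals on reads cover counting error only.

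Counts were filtered by filterByExpr, normalised by TMM and tested by edgeR 4.0.16 (quasi-likelihood test under R 4.3.3), p-values were adjusted over all arms by Benjamini-Hochberg, with DESeq2 1.42.0 as an alternative, and the code was tested on simulated data. Standard errors were obtained from the fold change and the F statistic. Shares were compared by exact permutation tests over samples. The canonical sequence of an arm is its read with the largest mean share. Deviations from the group means correlated at 0.603, 0.261 and 0.276 for samples with the same replicate number in the labels and at -0.392 to 0.158 for other pairs, over 319 arms, which are not independent. As deviations within a group balance out, these correlations are also tied to each other. No source states what a shared number means. Pairing by number was therefore used beside the main tests, which do not take it into account. The text names all arms of the family, the other lists described, the neighbours in level and the 3 arms most like miR-181a-5p. The members and lists were chosen with earlier results of these data known.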

Additional observations from a re-analysis of the deposited data

How the results depend on the processing

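No family arm passed the adjusted threshold under any alternative, which were DESeq2, library totals, no count filter, at least 10 reads in every sample, the replicate block, each sample left out in turn, exact matches only, reads of at least 20 nt, reads of a single arm only, canonical sequences only and, chosen after seeing the data, the 21-nt reads left out. Without the count filter, 21 of all 974 arms were higher and 0 of the 9 family arms, against 0 of 319 arms with it. With the replicate block the log2 fold changes were -0.145 for miR-181a-5p and 0.034 for miR-181b-5p, and the block changed no call.

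Of 125 alternative values of the arms' log2 fold changes, 14 changed sign. With 1 replicate left out, these ranged from -0.236 to 0.022 for miR-181a-5p, from -0.089 to 0.186 for miR-181b-5p, from -0.330 to 0.039 for miR-181a-2-3p, from -0.461 to 0.134 for miR-181b-1-3p and from -0.373 to 0.098 for miR-181c-3p. Canonical sequences only gave -0.066 for miR-181b-5p and 0.181 for miR-181b-1-3p, exact matches only gave 0.206 for miR-181c-3p, and without the 21-nt reads the values were -0.032 for miR-181b-5p and -0.047 for miR-181d-5p.

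Of 121 alternative values of the shares, 16 changed sign. With 1 replicate left out, the difference of LPS minus Control in percentage points ranged from -2.62 to 0.170 for miR-181a-5p, from -0.155 to 2.59 for miR-181b-5p and from -0.0174 to 0.0246 for miR-181c-5p among 5p reads, from -3.34 to 2.00 for Mir181a-1 among Mir181a 3p reads, from -0.297 to 0.134 and from -0.986 to 1.56 for the 3p reads of miR-181b and miR-181c, and from -0.480 to 0.461 for the canonical share of miR-181a-5p. Exact matches only gave 0.0869 for Mir181a-1 and 0.0413 for the 3p reads of miR-181b. The cause of these changes was not tested. Depth limits miR-181d-5p, miR-181b-1-3p and miR-181c-3p most, with 13 to 46 reads in most samples.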
